A study of Mus musculus with 12 samples.

Results

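Thymic tuft cells are chemosensory epithelial cells of the thymus medulla, and 30 genes that mark or equip them were followed through 12 RNA libraries of sorted mouse thymic epithelial cells. The genes were a named list, matched by symbol among the 27179 genes of the count files, and all 30 were found and all 30 passed the filter on low counts. They were ordered by role: 3 transcriptional regulators, 10 genes of taste signalling, 5 of eicosanoid synthesis, 3 for a cytokine, its receptor and acetylcholine, 5 adaptors and kinases, and 4 surface or cytoskeleton genes. The 4 groups held 3 libraries each. HOIL-deficient mTEChi (medullary epithelial cells with high MHC class II) and HOIL-deficient cTECs (cortical epithelial cells) came from Foxn1creT/+ HOILlox/lox mice, in which Cre is driven from Foxn1, the master regulator of thymic epithelium. Control mTEChi and control cTECs came from Foxn1cre+/+ Hoillox/lox mice by the study's design text, whereas their genotype label reads wild type. By the design text both genotypes carry the floxed Hoil alleles and differ in Cre, so the presence of Cre and the loss of Hoil cannot be told apart. All mice were C57BL/6, replicate 3 of both HOIL-deficient groups was female, every other library was from a male, and no age is given. The labels do not say that replicates were separate animals, so the p-values cover only the spread among libraries, which may be technical.

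A tuft cell senses its surroundings with the machinery of a taste cell. Taste receptors release the G protein gustducin, phospholipase C beta then makes inositol trisphosphate, calcium leaves internal stores through an inositol trisphosphate receptor, and the cation channel TRPM5 opens. The output consists of interleukin-25, cysteinyl leukotrienes, prostaglandin D2 and acetylcholine. The transcription factor POU2F3 is required for tuft cells to form, in the thymus as in the gut, and thymic tuft cells are known as a source of interleukin-25 in the medulla. Tuft cells are a small share of the medullary epithelium, so in these sorted populations fewer tuft cells and less of these RNAs per tuft cell cannot be told apart.

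Rbck1, which encodes HOIL-1, a subunit of the linear ubiquitin ligase LUBAC, was at 10.9, 11.7 and 23.3 CPM (counts per 1000000 counts of the library) in HOIL-deficient mTEChi, against 114, 128 and 108 CPM in control mTEChi, a log2 fold change of -2.99 ± 0.27 (SE). In cTECs the log2 fold change was -3.13 ± 0.27. Totals ran between 7941217 and 14274333 counts per library. RNA composition moved with genotype among the mTEChi: mitochondrial transcripts took 1.71 to 1.91% of counts in HOIL-deficient libraries, against 3.19 to 8.93% in control libraries, and the nuclear RNA Malat1 took 0.713 to 0.983% in HOIL-deficient libraries, against 3.29 to 5.13% in control libraries. Control mTEChi replicate 1 had the highest value of both. That library was also the highest of the 3 control mTEChi libraries for 18 of the 30 genes. HOIL-deficient mTEChi replicate 3, one of the female libraries, was the highest of its group for 19 of the 30.

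Between the cell types of the control mice, the tuft cell genes were largely medullary. Of the 30 genes, 29 were higher in control mTEChi than in control cTECs at an adjusted p under 0.05 (edgeR quasi-likelihood test, Benjamini-Hochberg over all 19398 genes tested), where 37.8% of all tested genes were called higher and 26.4% lower. The same 29 were higher in every control mTEChi library than in any control cTEC library, and 0 were lower in this sense, as against 39.6% and 31.6% of all tested genes. The median log2 fold change of the 30 was 4.90, against 0.24 over all genes. Trpm5 had 823 counts in the 3 control mTEChi libraries and 1 in the control cTEC libraries, a ratio of 835 between the pooled rates (exact 95% interval 149 to 33011). Chat, the enzyme that makes acetylcholine, had 168 counts in control mTEChi and none in control cTECs, which makes it at least 56.8-fold higher against a floor of 3 counts over the group. Sucnr1, a receptor for succinate, had 124 counts in control mTEChi and 0 in control cTECs, at least 41.9-fold higher. The calls of 6 of the 29 were lost without at least 1 library, Pou2f3, Tas1r3, Plcb2, Itpr3, Lrmp and Cd300lf, and the other 23 kept theirs without any 1 library. Each of the 6 control libraries ended at least 1 of those calls, and control mTEChi replicate 1 ended those of all but Cd300lf. Fyb, an adaptor that lymphocytes also use, was the exception, at 62.1, 34.5 and 38.8 CPM in control mTEChi and 79.9, 22.3 and 33.5 CPM in control cTECs (log2 fold change 0.10 ± 0.40, adjusted p = 0.84). Without control cTEC replicate 1, the highest library for Fyb, this gene too was called higher in control mTEChi (adjusted p = 0.047, edgeR). Per length, in TPM (counts divided by gene length, per 1000000 in a library), within control mTEChi, the most abundant of the 30 were Gng13 at 115 ± 44.9 (SD, n = 3), Spib at 89.8 ± 13.6, Ltc4s at 81.1 ± 31.2, Alox5ap at 70.5 ± 35.0 and Gnat3 at 70.0 ± 6.81 TPM, and neighbours in this order overlapped within 1 SD. The least abundant were Tas1r3 at 2.26 ± 0.12, L1cam at 2.50 ± 0.19 and Chat at 3.13 ± 0.21 TPM.

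Many of these genes were lower in HOIL-deficient mTEChi than in control mTEChi. At an adjusted p under 0.05, 14 of the 30 fell in HOIL-deficient mTEChi and 0 rose, in a comparison that called 8.59% of all tested genes lower and 11.3% higher. With upper-quartile scaling the split over all genes turned, to 1708 higher and 1979 lower genes, against 2191 higher and 1667 lower genes with the scaling used here, and 15 of the 30 were called lower. At an unadjusted p under 0.05, again 0 of the 30 were higher, and DESeq2 and limma-voom likewise called 0 higher. The 3 HOIL-deficient libraries lay below all 3 control libraries for 23 of the 30 genes, as they did for 20.6% of all tested genes. The median log2 fold change was -1.46, against -0.03 over all genes, and 27 of the 30 were below 0. Summed over the 30 genes, the level was 383, 364 and 458 TPM in HOIL-deficient mTEChi, against 981, 659 and 833 TPM in control mTEChi.

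**Figure D1:**
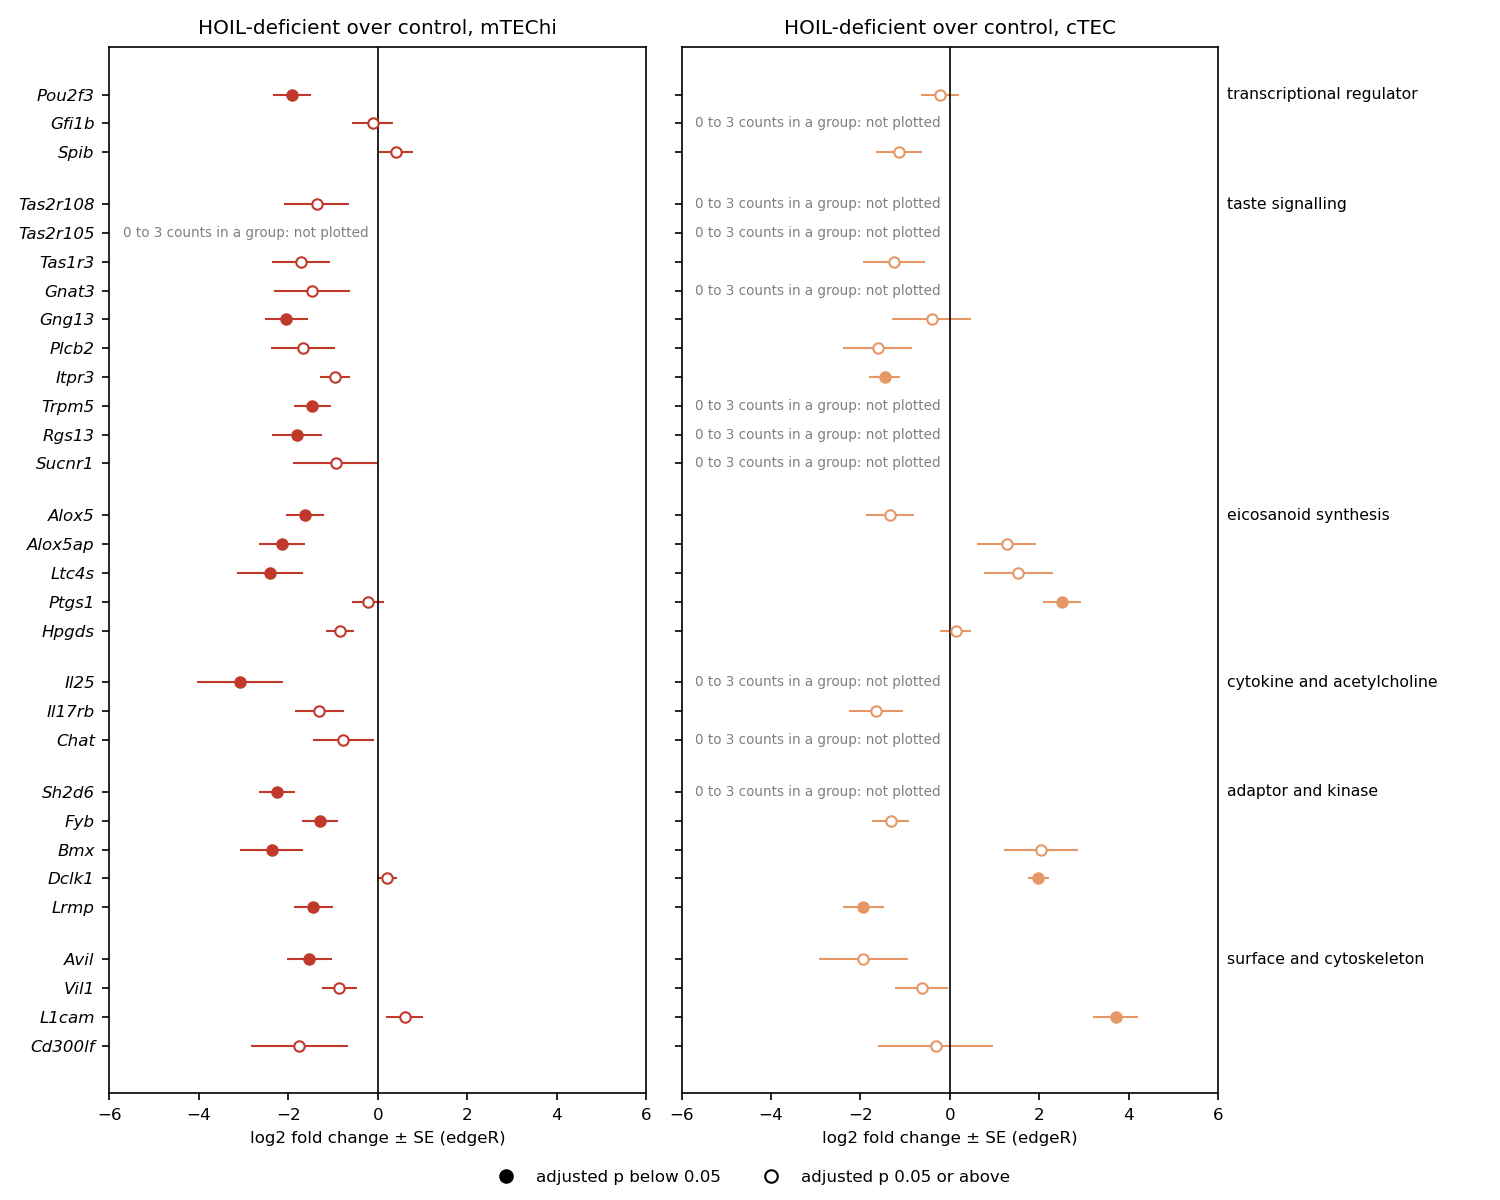
Log2 fold changes ± SE (x axes) of HOIL-deficient over control cells for the 30 genes grouped by role, in mTEChi (left) and cTECs (right). Filled points have an adjusted p below 0.05; genes with 0 to 3 counts in a group are named but not plotted. In mTEChi 14 genes, Tas2r105 among them, were called lower and none higher, whereas in cTECs 3 were called higher and 2 lower.

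The regulators did not move together. Pou2f3 (Entrez 18988, chromosome 9, bases 43123927 to 43205755 of mm10) was at 7.60, 12.05 and 15.8 CPM in HOIL-deficient mTEChi, against 56.3, 31.9 and 37.8 CPM in control mTEChi. Every HOIL-deficient library lay below every control library, and the gene fell by 1.91 ± 0.42 on the log2 scale (adjusted p = 0.0072, edgeR). Gfi1b (chromosome 2), a zinc finger repressor that in the epithelium marks tuft cells, was at 18.2, 15.5 and 8.76 CPM in HOIL-deficient mTEChi and at 9.62, 14.3 and 20.3 CPM in control mTEChi. Those ranges overlapped almost fully, and the log2 fold change was -0.11 ± 0.46 (adjusted p = 0.90, edgeR). Spib, an ETS factor that is also expressed by medullary epithelial cells that respond to RANK, was at 268, 175 and 259 CPM in HOIL-deficient mTEChi, against 151, 186 and 169 CPM in control mTEChi. HOIL-deficient replicates 1 and 3 stood above all controls and replicate 2 among them (log2 fold change 0.41 ± 0.38, adjusted p = 0.48, edgeR). Because Spib is so much more abundant than the other regulators, their summed level was 122 to 173 TPM in HOIL-deficient mTEChi and 115 to 135 TPM in control mTEChi, and those ranges overlapped.

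**Figure D2:**
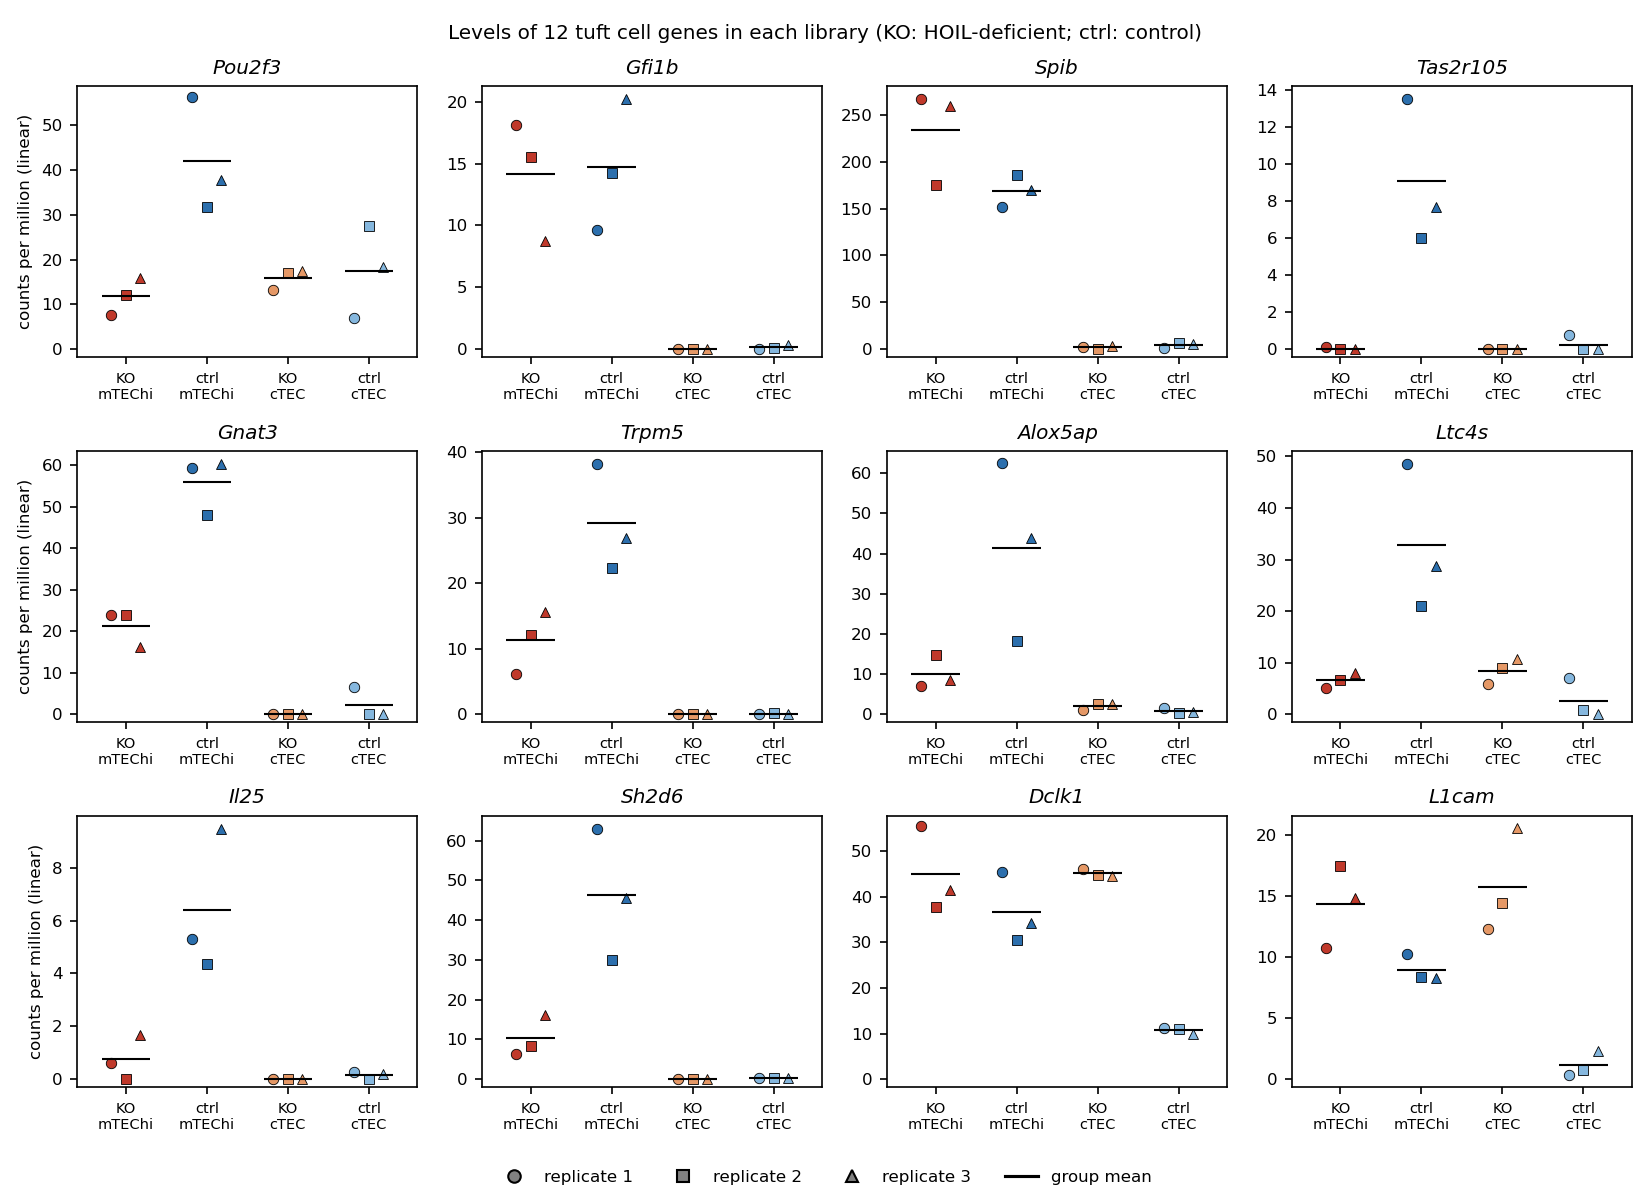
CPM on linear axes for 12 of the genes, one panel each, in the 3 libraries of HOIL-deficient mTEChi, control mTEChi, HOIL-deficient cTECs and control cTECs; markers show replicates and lines group means. Pou2f3, Tas2r105, Trpm5, Alox5ap, Ltc4s, Il25 and Sh2d6 lie lower in HOIL-deficient than in control mTEChi without overlap, Gfi1b and Dclk1 overlap between the mTEChi groups, and Dclk1 and L1cam lie higher in HOIL-deficient than in control cTECs.

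The taste signalling genes as a group summed to 75.5, 82.1 and 112 TPM in HOIL-deficient mTEChi, against 329, 218 and 278 TPM in control mTEChi, and 4 of the 10 were called lower. Tas2r105 (Entrez 57252, chromosome 6, bases 131686561 to 131687463), a bitter receptor, showed the widest gap of the 30. It had 1 count in all HOIL-deficient mTEChi libraries together, at 0.0986, 0 and 0 CPM, against 256 counts in control mTEChi, at 13.5, 6.00 and 7.64 CPM. The pooled rate was 320-fold lower (exact 95% interval 57.0 to 12695, counting error only; adjusted p = 0.0021, edgeR). Bitter receptor genes are short and similar to one another, and how reads that match several genes were counted is not given in the sources used here. Tas2r108, the other bitter receptor of the list, was at 0.888, 1.12 and 2.52 CPM in HOIL-deficient mTEChi and at 3.69, 3.10 and 4.40 CPM in control mTEChi. These values, from 104 counts over the control libraries, did not overlap either. The test did not call Tas2r108 (log2 fold change -1.36 ± 0.73, adjusted p = 0.21, edgeR). Tas1r3, the shared subunit of the sweet and umami receptors, was at 0.493, 1.03 and 3.57 CPM in HOIL-deficient mTEChi and at 5.53, 4.96 and 5.67 CPM in control mTEChi (adjusted p = 0.077, edgeR).

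Downstream of the receptors, Gnat3, the gustducin alpha subunit, was at 23.8, 23.9 and 16.3 CPM in HOIL-deficient mTEChi and at 59.3, 47.9 and 60.4 CPM in control mTEChi. The groups stood well apart, with a log2 fold change of -1.46 ± 0.85, yet the fit over all 12 libraries did not call it (adjusted p = 0.26, edgeR). A fit of the 6 mTEChi libraries alone did (adjusted p = 0.0017, edgeR), and the cause of this difference was not tested. Gng13, the gamma subunit that pairs with gustducin, was at 7.89, 4.39 and 13.0 CPM in HOIL-deficient mTEChi, against 48.7, 20.9 and 28.2 CPM in control mTEChi, and fell by 2.04 ± 0.49 on the log2 scale (adjusted p = 0.011, edgeR). Control replicate 1 was the highest of the 6, and without it the adjusted p was 0.086. Plcb2, the phospholipase, was at 4.64, 7.85 and 13.0 CPM in HOIL-deficient mTEChi, against 40.8, 16.2 and 18.5 CPM in control mTEChi. Itpr3, the calcium release channel, was at 20.1, 12.8 and 21.8 CPM in HOIL-deficient mTEChi, against 29.6, 40.4 and 32.1 CPM in control mTEChi. Neither pair of groups overlapped and neither gene passed the test over 12 libraries (adjusted p = 0.12 and 0.060, edgeR), while both passed in the fit of mTEChi alone (adjusted p = 0.022 and 0.015).

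Trpm5 (Entrez 56843, chromosome 7, bases 143071529 to 143094642), the channel at the end of the cascade, was at 6.12, 12.1 and 15.6 CPM in HOIL-deficient mTEChi, against 38.3, 22.3 and 27.0 CPM in control mTEChi. All HOIL-deficient libraries were lower, and the gene fell by 1.46 ± 0.42 on the log2 scale (adjusted p = 0.031, edgeR). Rgs13, which shortens G protein signals, was at 2.47, 16.5 and 18.1 CPM in HOIL-deficient mTEChi, against 38.1, 34.3 and 52.4 CPM in control mTEChi, with replicate 1 far below the other HOIL-deficient libraries (fell by 1.81 ± 0.56, adjusted p = 0.039, edgeR). Sucnr1 was at 1.38, 2.62 and 3.22 CPM in HOIL-deficient mTEChi and at 1.84, 5.07 and 6.60 CPM in control mTEChi, and these overlapped (adjusted p = 0.53, edgeR).

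POU2F3 belongs to the POU family, whose members bind the octamer ATGCAAAT. This motif was searched on both strands (reverse complement ATTTGCAT) in windows from 250 bases before to 50 bases after each RefSeq gene start (assembly GRCm38.p6, the assembly that mm10 names). It was found for 4 of the 26 genes of the list that have such a window, 15.4%, against 1.97% of all 27025 genes with one. The 4 were Hpgds, Itpr3, Sucnr1 and Tas2r108, none of which was called lower in HOIL-deficient mTEChi in the fit over 12 libraries. Hpgds, Itpr3 and Tas2r108 were nevertheless lower there in every library, as were 20.6% of all tested genes, while Sucnr1 overlapped. Hpgds and Itpr3 were called in the fit of mTEChi alone. Pou2f3, Il25, Alox5ap and Lrmp were not among the genes with a window. A match of letters is a description and not a site of binding. Stretches upstream of Tas2r108 (chr6:40493386-40493513, plus strand) and Sucnr1 (chr3:60081761-60081868, plus strand) are shown from RefSeq because each holds the motif, in capitals, a short way before the annotated start: 138 bases before it in Tas2r108 and 40 bases before it in Sucnr1.
Tas2r108: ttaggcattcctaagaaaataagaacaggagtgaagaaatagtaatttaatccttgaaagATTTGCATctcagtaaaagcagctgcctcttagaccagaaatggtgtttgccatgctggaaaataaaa
Sucnr1: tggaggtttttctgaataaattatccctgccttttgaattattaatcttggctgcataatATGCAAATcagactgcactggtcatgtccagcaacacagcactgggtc

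Of the 5 genes of eicosanoid synthesis, the 3 of the leukotriene arm fell, and the 2 of the prostaglandin arm were not called. Whether the arms differ was not tested. Leukotriene synthesis starts with arachidonate 5-lipoxygenase (Alox5) and its activating protein (Alox5ap), and leukotriene C4 synthase (Ltc4s) completes the cysteinyl leukotrienes. Alox5 was at 8.88, 9.43 and 7.92 CPM in HOIL-deficient mTEChi, against 25.9, 20.9 and 29.97 CPM in control mTEChi (fell by 1.62 ± 0.43 on the log2 scale, adjusted p = 0.018, edgeR). Alox5ap was at 7.10, 14.7 and 8.48 CPM in HOIL-deficient mTEChi, against 62.4, 18.2 and 43.9 CPM in control mTEChi (fell by 2.14 ± 0.51, adjusted p = 0.011). Its control libraries spread widely, with replicate 2 the lowest, and still every HOIL-deficient library was below them. Ltc4s was at 5.03, 6.63 and 8.06 CPM in HOIL-deficient mTEChi, against 48.6, 20.9 and 28.8 CPM in control mTEChi (fell by 2.41 ± 0.74, adjusted p = 0.036, edgeR). All 3 leukotriene genes were therefore lower in every HOIL-deficient library. Of the 6 fits without 1 mTEChi library, Alox5ap was called in 5, and Alox5 and Ltc4s in 1 each.

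On the prostaglandin side, Ptgs1, cyclooxygenase 1, was at 19.6, 31.5 and 33.8 CPM in HOIL-deficient mTEChi and at 39.0, 20.3 and 33.4 CPM in control mTEChi, so the groups overlapped (log2 fold change -0.21 ± 0.35, adjusted p = 0.72, edgeR). Hpgds, the synthase of prostaglandin D2, was at 19.1, 22.7 and 19.8 CPM in HOIL-deficient mTEChi and at 38.9, 36.9 and 29.7 CPM in control mTEChi. Every HOIL-deficient library was lower, the log2 fold change was -0.85 ± 0.32, and the adjusted p was 0.074 (edgeR), or 0.015 in the fit of mTEChi alone.

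Il25 encodes the cytokine by which tuft cells call on type 2 immunity. Il25 (Entrez 140806, chromosome 14, bases 54932695 to 54935837) was at 0.592, 0 and 1.68 CPM in HOIL-deficient mTEChi, against 5.32, 4.34 and 9.49 CPM in control mTEChi. It fell by 3.08 ± 0.97 on the log2 scale (adjusted p = 0.044, edgeR). Il17rb, the receptor subunit that binds interleukin-25, was at 5.92, 6.44 and 11.98 CPM in HOIL-deficient mTEChi and at 16.6, 19.4 and 22.0 CPM in control mTEChi (adjusted p = 0.11, edgeR, and 0.011 in the fit of mTEChi alone). Neither gene's groups overlapped. Chat was at 1.18, 2.24 and 7.57 CPM in HOIL-deficient mTEChi and at 6.65, 5.27 and 6.02 CPM in control mTEChi, where HOIL-deficient replicate 3 was the highest of all 6 libraries (log2 fold change -0.77 ± 0.69, adjusted p = 0.47, edgeR).

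Among adaptors and kinases 4 of 5 fell. Sh2d6 (Entrez 71130, chromosome 6, bases 72513641 to 72534206), an SH2 domain adaptor typical of tuft cells, was at 6.41, 8.41 and 16.0 CPM in HOIL-deficient mTEChi, against 63.1, 30.1 and 45.6 CPM in control mTEChi (fell by 2.25 ± 0.40, adjusted p = 0.0030, edgeR). Bmx, a TEC family tyrosine kinase, was at 3.35, 3.83 and 8.90 CPM in HOIL-deficient mTEChi, against 31.8, 22.1 and 25.2 CPM in control mTEChi (fell by 2.37 ± 0.70, adjusted p = 0.030). Both had groups that were far apart. Lrmp, a membrane protein of the endoplasmic reticulum that binds inositol trisphosphate receptors, was at 33.5, 35.0 and 46.5 CPM in HOIL-deficient mTEChi, against 127, 69.3 and 99.1 CPM in control mTEChi (fell by 1.44 ± 0.43, adjusted p = 0.032). Fyb was at 19.2, 18.4 and 21.3 CPM in HOIL-deficient mTEChi, against 62.1, 34.5 and 38.8 CPM in control mTEChi (fell by 1.29 ± 0.41, adjusted p = 0.042). Dclk1, a kinase much used as a tuft cell marker in the gut, stood apart from these. It was at 55.4, 37.8 and 41.4 CPM in HOIL-deficient mTEChi and at 45.5, 30.6 and 34.1 CPM in control mTEChi, with overlapping libraries (log2 fold change 0.21 ± 0.22, adjusted p = 0.54, edgeR).

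Avil, an actin-bundling protein of the tuft, was at 19.3, 17.3 and 17.7 CPM in HOIL-deficient mTEChi, against 63.3, 35.9 and 49.0 CPM in control mTEChi (fell by 1.53 ± 0.51, adjusted p = 0.047, edgeR). Vil1, villin, a bundler of microvillar actin, was at 20.4, 10.5 and 24.2 CPM in HOIL-deficient mTEChi and at 40.6, 27.8 and 26.5 CPM in control mTEChi. Its groups did not overlap by a narrow margin (adjusted p = 0.13, edgeR). L1cam, a cell adhesion molecule of neurons and Schwann cells that tuft-like cells also express, was the 1 gene of the list that was higher in every HOIL-deficient library, as were 23.8% of all tested genes, at 10.8, 17.5 and 14.9 CPM in HOIL-deficient mTEChi, against 10.2, 8.38 and 8.33 CPM in control mTEChi (log2 fold change 0.60 ± 0.42, adjusted p = 0.35, edgeR). Cd300lf, an immunoglobulin-like receptor of myeloid and tuft cells, was at 2.56, 0 and 1.26 CPM in HOIL-deficient mTEChi and at 3.28, 4.14 and 5.09 CPM in control mTEChi (adjusted p = 0.28, edgeR).

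**Figure D3:**
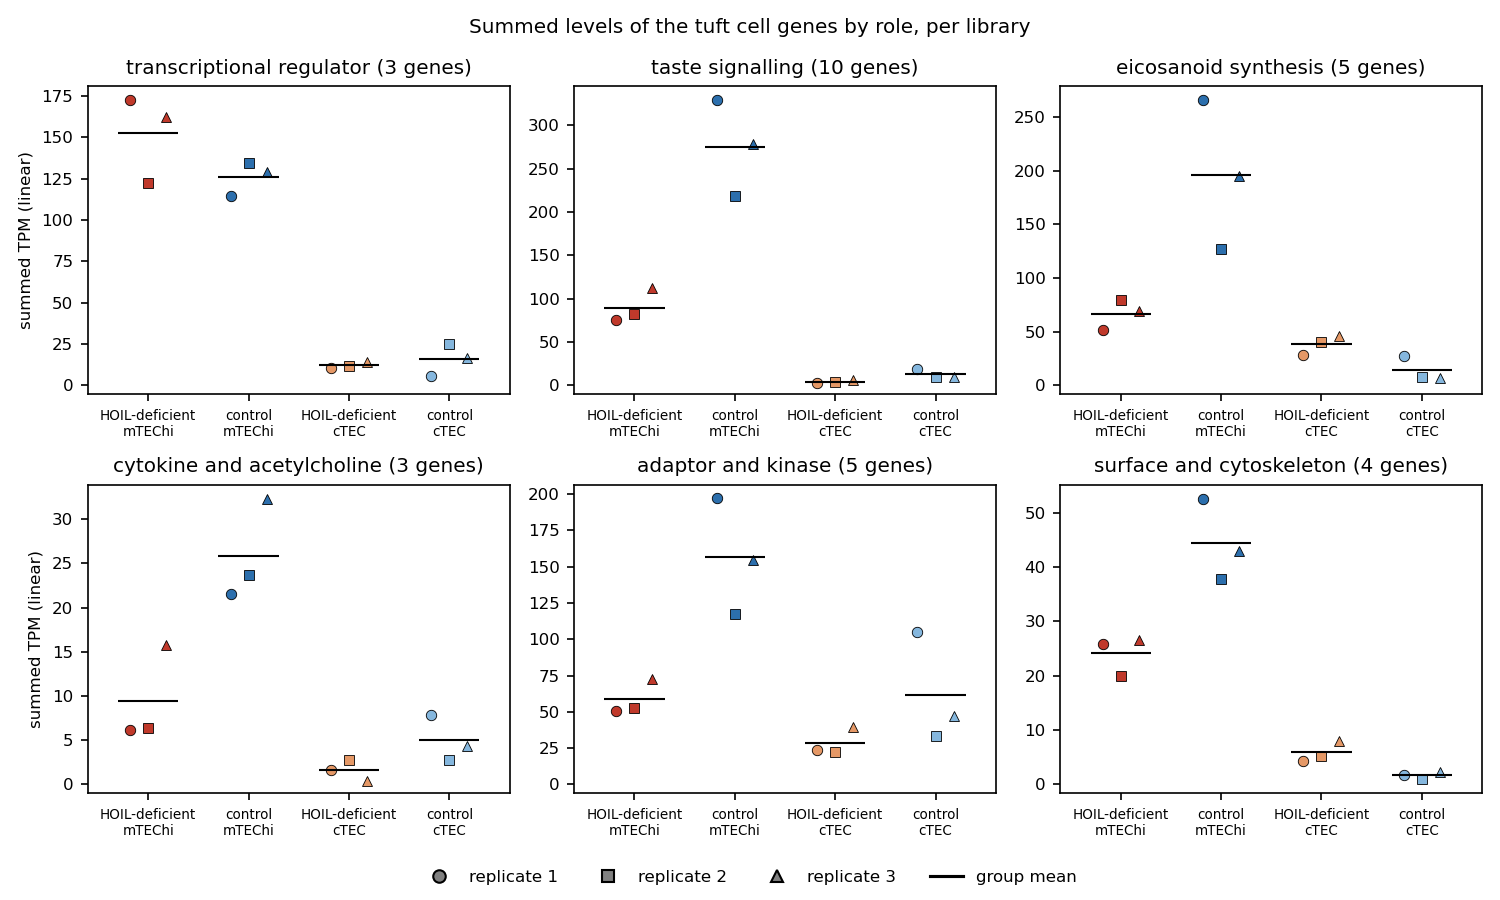
Summed TPM (linear axes) of the genes of each role in every library, with HOIL-deficient mTEChi, control mTEChi, HOIL-deficient cTECs and control cTECs along each x axis; markers show replicates and lines group means. Taste signalling genes summed to 75.5 to 112 TPM in HOIL-deficient mTEChi against 218 to 329 TPM in control mTEChi, while the summed regulators overlapped between the mTEChi groups.

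The number of genes called in mTEChi depended on single libraries. Without control mTEChi replicate 1, only Pou2f3, Tas2r105 and Sh2d6 of the 30 were still called lower, and 3.90% of all genes were, while the median log2 fold change of the 30 was -1.32. Without control replicate 3 the count was 5, with 4.74% of all genes called lower. Without HOIL-deficient replicate 1 or 2 it was 6, with 4.85% and 4.56% of all genes. Without HOIL-deficient replicate 3 it was 10, with 6.17%, and without control replicate 2 it was 11, with 6.61%. Pou2f3, Tas2r105 and Sh2d6 were the 3 genes whose call held without any 1 library. With only male libraries, which leaves out HOIL-deficient replicate 3 of both cell types, 14 were called lower, as were 6.08% of all genes. The call for Avil was lost in every one of the 6 fits that left out a library, and also under DESeq2 (adjusted p = 0.18).

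**Figure D4:**
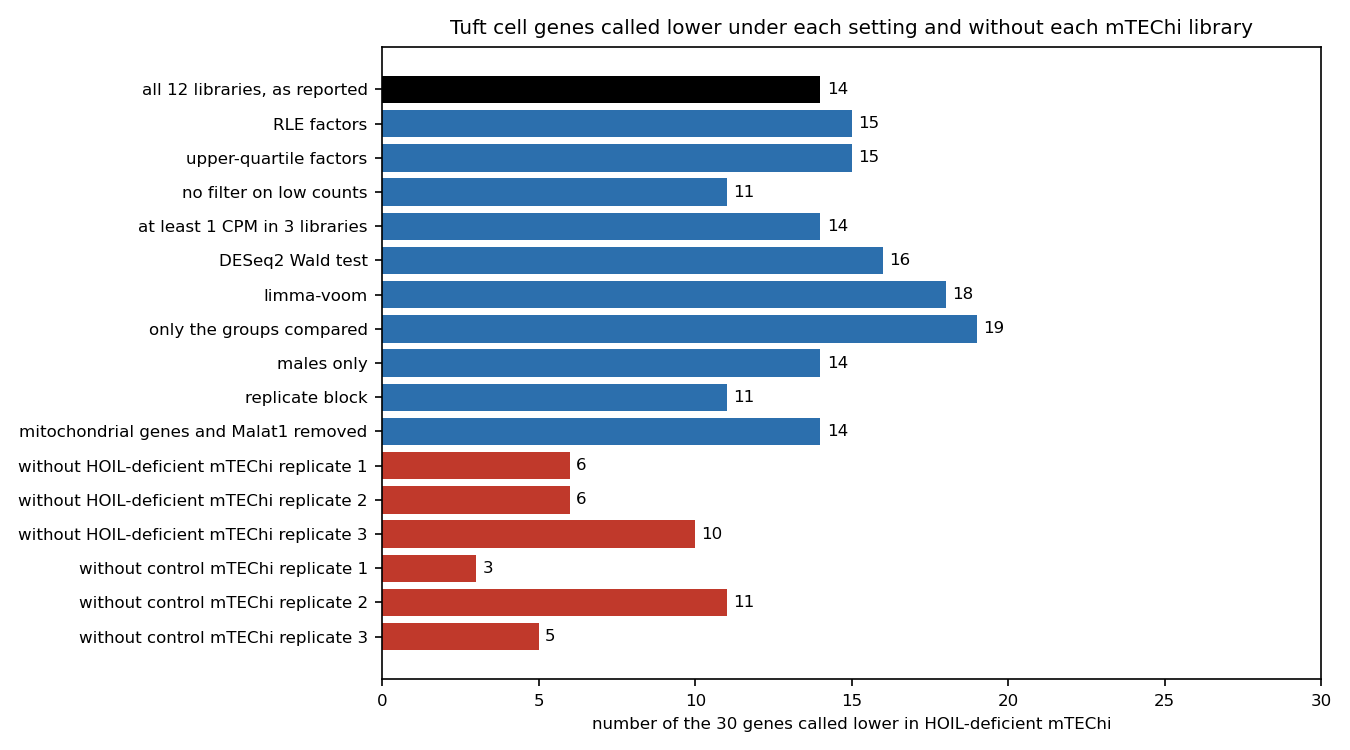
Number of the 30 tuft cell genes called lower in HOIL-deficient mTEChi at an adjusted p under 0.05 (x axis) with the analysis as reported (black), under other settings (blue) and without each mTEChi library in turn (red). The count is 14 as reported, 11 to 19 under the other settings and 3 to 11 without 1 library. Over all genes, 8.59% were called lower as reported, 6.07 to 13.2% under the other settings and 3.9 to 6.61% without 1 library.

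Levels in cTECs ranged widely among the 30 genes, and fitted on the cTEC libraries alone 16 of them passed the filter on low counts. At an adjusted p under 0.05, 3 of the 30 rose in HOIL-deficient cTECs, Dclk1, L1cam and Ptgs1, and 2 fell, Itpr3 and Lrmp, in a comparison that called 6.06% of all tested genes higher and 6.02% lower. Libraries did not overlap for the same 3 higher genes, against 15.9% of all tested genes, and for 4 lower genes, Itpr3, Lrmp, Tas1r3 and Sh2d6, against 12%. The summed level of the 30 genes was 71.3, 86.6 and 114 TPM in HOIL-deficient cTECs and 166, 79.7 and 87.1 TPM in control cTECs, which overlapped. Of the 30, 9 had no count in any HOIL-deficient cTEC library, and 2 had none in control cTECs. The median fitted log2 fold change was -1.29, or -0.59 with such genes set at their bounds, against -0.02 over all genes.

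Dclk1 (Entrez 13175, chromosome 3, bases 55242303 to 55539068) was at 46.2, 44.9 and 44.6 CPM in HOIL-deficient cTECs, against 11.2, 11.1 and 9.92 CPM in control cTECs. Each group was tight and far from the other, and the log2 fold change was 1.98 ± 0.24 (adjusted p = 2.6e-04, edgeR). The level reached in HOIL-deficient cTECs lay within the range of HOIL-deficient mTEChi. L1cam was at 12.3, 14.4 and 20.6 CPM in HOIL-deficient cTECs, against 0.368, 0.756 and 2.27 CPM in control cTECs (log2 fold change 3.71 ± 0.50, adjusted p = 5.9e-04). Ptgs1 was at 7.93, 8.81 and 11.01 CPM in HOIL-deficient cTECs, against 1.38, 0.630 and 2.48 CPM in control cTECs (log2 fold change 2.51 ± 0.43, adjusted p = 0.0024). These 3 calls held without any 1 library and under every alternative run.

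Markers of other cell types moved with the same genotype in cTECs, where 6.06% of all tested genes were called higher and 6.02% lower. Of 8 Schwann and neural markers, 6 rose in HOIL-deficient cTECs, and their summed level was 126 to 153 CPM there, against 30.2 to 36.0 CPM in control cTECs. Sox10, a defining factor of Schwann cells, was at 10.8 to 17.3 CPM in HOIL-deficient cTECs and at 0.378 to 1.20 CPM in control cTECs. Of 10 fibroblast and pericyte markers, 6 rose, with sums of 2577 to 3696 CPM in HOIL-deficient cTECs, against 153 to 1376 CPM in control cTECs. Of 10 endothelial markers 9 rose, with sums of 132 to 413 CPM in HOIL-deficient cTECs, against 35.6 to 65.6 CPM in control cTECs. No marker of these 3 lists was at 0 in a whole group. Of the other lists, 5 of 13 mast cell, basophil and platelet markers and 1 of 13 dendritic cell and macrophage markers rose, while 4 of 9 B and plasma cell markers, 4 of 14 microfold and gut markers and 1 of 6 erythroid markers fell. Of 17 markers of thymic epithelium, 8 fell and 3 rose, and their sums were 27829 to 29242 CPM in HOIL-deficient cTECs, against 43399 to 54936 CPM in control cTECs. Psmb11 and Ly75, both typical of cTECs, fell by 1.35 and 1.47 on the log2 scale, and the keratin gene Krt14 had a log2 fold change of 2.73 (adjusted p = 0.0011, 0.0015 and 2.8e-05, edgeR). The part of these markers' cells, and of the change in epithelial markers, in the values of Dclk1, L1cam and Ptgs1 was not tested.

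Itpr3 was at 6.63, 4.82 and 12.5 CPM in HOIL-deficient cTECs, against 13.7, 26.3 and 22.5 CPM in control cTECs (fell by 1.46 ± 0.35, adjusted p = 0.016, edgeR). Lrmp was at 10.2, 6.05 and 16.3 CPM in HOIL-deficient cTECs, against 68.5, 18.1 and 28.7 CPM in control cTECs (fell by 1.93 ± 0.45, adjusted p = 0.015). The groups of both genes were apart, each by a narrow margin. Fyb, at 13.7, 18.1 and 26.3 CPM in HOIL-deficient cTECs, against 79.9, 22.3 and 33.5 CPM in control cTECs, was not called (adjusted p = 0.052, edgeR). Control cTEC replicate 1 was the highest for both Lrmp and Fyb, and its thymocyte markers summed to 4917 CPM, against 1329 and 1937 CPM in the other control cTEC libraries. Of 16 thymocyte markers, 14 fell in HOIL-deficient cTECs, where they summed to 579 to 1057 CPM. None of the 16 was called in mTEChi, where they summed to 194 to 378 CPM in HOIL-deficient and to 191 to 319 CPM in control libraries. Without control cTEC replicate 1 the call for Lrmp was lost, as it was without HOIL-deficient cTEC replicate 2, and in a fit of cTECs alone the adjusted p of both Itpr3 and Lrmp was 0.059. The call for Itpr3 was lost without HOIL-deficient cTEC replicate 1 or 2 and without control cTEC replicate 2. The part of thymocyte RNA in either gene was not tested.

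Pou2f3 itself was well detected in cTECs, at 13.3, 17.1 and 17.4 CPM in HOIL-deficient cTECs and at 6.91, 27.5 and 18.3 CPM in control cTECs (log2 fold change -0.22 ± 0.42, adjusted p = 0.83, edgeR). The HOIL-deficient values fell inside the control range. Spib was at 2.13, 0.615 and 3.17 CPM in HOIL-deficient cTECs, against 1.20, 6.30 and 5.47 CPM in control cTECs (adjusted p = 0.17, edgeR). The leukotriene genes were low: Ltc4s was at 5.80, 8.91 and 10.6 CPM in HOIL-deficient cTECs and at 6.999, 0.756 and 0.103 CPM in control cTECs, where replicate 1 alone reached the HOIL-deficient range (adjusted p = 0.22, edgeR). Without control cTEC replicate 1, Ltc4s was called higher in HOIL-deficient cTECs (adjusted p = 0.0018, edgeR). Replicate 3 carried most of Bmx, at 1.42, 0.922 and 6.94 CPM in HOIL-deficient cTECs, against 1.29, 0 and 0.723 CPM in control cTECs. Alox5ap was at 1.07, 2.46 and 2.49 CPM in HOIL-deficient cTECs, against 1.47, 0.252 and 0.516 CPM in control cTECs, and Alox5 was at 1.66, 0.307 and 0.377 CPM in HOIL-deficient cTECs, against 2.12, 1.13 and 1.96 CPM in control cTECs. All 3 genes overlapped between the cTEC groups, and none was called (adjusted p = 0.13 for Bmx, 0.24 for Alox5ap and 0.13 for Alox5, edgeR). Hpgds was at 6.51, 8.50 and 3.09 CPM in HOIL-deficient cTECs and at 4.14, 6.17 and 5.27 CPM in control cTECs, again with overlap.

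Several of the genes that mark tuft cells most closely had few or no counts in cTECs. In HOIL-deficient cTECs, 9 genes had 0 counts in all 3 libraries: Trpm5, Tas2r108, Chat, Gfi1b, Rgs13, Il25, Sh2d6, Tas2r105 and Gnat3. In control cTECs Chat was also at 0, Trpm5 had 1 count, in replicate 2, and Tas2r108 had 2, in replicate 1, so no fold is given for these 3. Gfi1b had 0, 1 and 3 counts in control cTECs, Rgs13 had 2, 0 and 3, Il25 had 3, 0 and 2, Sh2d6 had 3, 3 and 2, and Tas2r105 had 8, 0 and 0. Such counts allow only small bounds, at least 2.95-fold lower for Sh2d6 and Tas2r105 in HOIL-deficient cTECs and less for the others, and none of these genes was called. Gnat3 had 0 counts in HOIL-deficient cTECs and 72 in control cTECs, which makes it at least 26.5-fold lower, but all 72 were in control replicate 1, and the groups overlapped at 0 (adjusted p = 0.062, edgeR). Sucnr1 had 16 counts in HOIL-deficient cTECs, all in replicate 3, and 0 in control cTECs, at least 4.83-fold higher.

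Plcb2 was at 2.13, 0 and 3.92 CPM in HOIL-deficient cTECs and at 7.74, 3.02 and 6.82 CPM in control cTECs. Il17rb was at 1.89, 3.38 and 0.377 CPM in HOIL-deficient cTECs, against 8.84, 3.02 and 4.54 CPM in control cTECs. Tas1r3 was at 0.947, 1.02 and 0.452 CPM in HOIL-deficient cTECs, against 1.20, 1.76 and 2.48 CPM in control cTECs. None of them was called (adjusted p = 0.20 for Plcb2, 0.091 for Il17rb and 0.27 for Tas1r3, edgeR). The other 4 genes were near 0 in both cTEC groups. Avil was at 0, 0.615 and 0 CPM in HOIL-deficient cTECs, against 1.47, 0.504 and 0.103 CPM in control cTECs, and Vil1 was at 0.118, 0.512 and 0.905 CPM in HOIL-deficient cTECs, against 0.737, 0.630 and 1.03 CPM in control cTECs. Gng13 was at 0, 0.512 and 0.302 CPM in HOIL-deficient cTECs, against 0.276, 0.504 and 0.310 CPM in control cTECs, and Cd300lf was at 0.237, 0 and 0.754 CPM in HOIL-deficient cTECs, against 0.368, 0 and 0.826 CPM in control cTECs. The groups of all 4 overlapped.

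The effects of HOIL deficiency in the 2 cell types were set against each other as an interaction, the log2 fold change in mTEChi minus that in cTECs. Of the 30 genes, 6 had a lower effect in mTEChi and 0 a higher one, in a test that called 3.86% of all genes lower and 5.97% higher. Of the 30, 9 had no count in any HOIL-deficient cTEC library, and 16 passed the filter in a fit of cTECs alone. For genes so low in cTECs the test could hardly make a call, with an SE of 2.91 for Gnat3 and 18.9 for Tas2r105. Genes not called here are therefore not shown to respond alike in both cell types. For Dclk1 the difference was -1.77 ± 0.32 (adjusted p = 0.0061, edgeR), for L1cam -3.11 ± 0.65 (adjusted p = 0.011) and for Ptgs1 -2.72 ± 0.55 (adjusted p = 0.0098), each called higher in cTECs and not called in mTEChi. The other 3 were Alox5ap at -3.41 ± 0.83 (adjusted p = 0.021), Ltc4s at -3.94 ± 1.07 (adjusted p = 0.033) and Bmx at -4.41 ± 1.08 (adjusted p = 0.022), each called lower in mTEChi and not called in cTECs. With only male libraries the calls of Alox5ap, Ltc4s and Bmx were lost. Of the 12 fits that left out 1 library, Alox5ap was called in 10, all but those without control cTEC replicate 3 or control mTEChi replicate 1, Bmx in 7 and Ltc4s in 4. The calls of Dclk1, L1cam and Ptgs1 held under every alternative and without any 1 library. For Pou2f3 the difference of -1.70 ± 0.59 was not called (adjusted p = 0.082, edgeR).

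Further genes of the same pathways were counted in mTEChi, where 8.59% of all tested genes were called lower and 11.3% higher. Of 34 other tuft cell associated genes, 31 were tested, and 7 fell and 2 rose in HOIL-deficient mTEChi. Kctd12 was at 62.6 ± 11.2 CPM in HOIL-deficient mTEChi and 153 ± 12.7 CPM in control mTEChi (SD, n = 3 each; log2 fold change -1.36, adjusted p = 7.6e-04, edgeR). Pik3r5, a regulatory subunit of PI3-kinase gamma, was at 9.47 ± 5.43 CPM in HOIL-deficient mTEChi and 42.0 ± 5.24 CPM in control mTEChi (log2 fold change -2.22, adjusted p = 0.0075), and Nrep rose, at 499 ± 64.2 CPM in HOIL-deficient mTEChi and 191 ± 37.3 CPM in control mTEChi. Of 39 other taste receptor and transduction genes in the files, only 9 passed the filter, and 1 fell: Gnb3, the G protein beta subunit of taste cells, at 70.1 ± 4.80 CPM in HOIL-deficient mTEChi and 152 ± 32.0 CPM in control mTEChi (log2 fold change -1.19, adjusted p = 0.021). Of 18 other eicosanoid genes tested, 2 fell and 3 rose. The counts of the taste and eicosanoid lists are near those shares of all genes. Hpgd, which inactivates prostaglandins, was at 31.5 ± 6.97 CPM in HOIL-deficient mTEChi and 80.7 ± 9.58 CPM in control mTEChi (adjusted p = 9.9e-04, edgeR). Ptgdr, a receptor for prostaglandin D2, was at 1.19 ± 0.34 CPM in HOIL-deficient mTEChi and 5.70 ± 0.83 CPM in control mTEChi (adjusted p = 0.0094). Lta4h, which leads to leukotriene B4, rose, at 112 ± 16.3 CPM in HOIL-deficient mTEChi and 57.3 ± 10.2 CPM in control mTEChi (adjusted p = 0.0048).

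Of 10 genes of the type 2 cytokine axis, 2 rose and none fell in HOIL-deficient mTEChi. Over all tested genes in mTEChi, 11.3% were called higher and 8.59% lower. Il13ra1, a receptor chain for interleukin-13, was at 156 ± 29.5 CPM in HOIL-deficient mTEChi and 83.6 ± 23.4 CPM in control mTEChi, and Il2rg, the common gamma chain, was at 830 ± 48.0 CPM in HOIL-deficient mTEChi and 355 ± 121 CPM in control mTEChi (adjusted p = 0.0078 and 0.032, edgeR). Il4 was not called, at 8.14 ± 1.84 CPM in HOIL-deficient mTEChi and 15.6 ± 2.85 CPM in control mTEChi (adjusted p = 0.11). In cTECs, Il33, an alarmin cytokine, was at 79.3 ± 16.3 CPM in HOIL-deficient and 7.30 ± 0.43 CPM in control libraries, a log2 fold change of 3.35 (adjusted p = 0.0018, edgeR), while Il4ra and Il2rg fell. In HOIL-deficient cTECs 4 of the 31 other tuft cell associated genes rose and 9 fell, 1 of the 9 taste genes rose and 1 fell, and 2 of the 18 eicosanoid genes rose and 1 fell. Over all tested genes in cTECs, 6.06% were called higher and 6.02% lower. Ache, which breaks down acetylcholine, was at 182 ± 28.3 CPM in HOIL-deficient cTECs and 598 ± 51.3 CPM in control cTECs (log2 fold change -1.81, adjusted p = 5.6e-05).

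Other medullary and non-epithelial markers were followed in the same mTEChi libraries, where 8.59% of all tested genes were called lower and 11.3% higher. Among 14 microfold and gut mimetic markers, which stand for other specialised medullary cells, 4 fell and 1 rose. Muc13 was at 24.0 ± 0.66 CPM in HOIL-deficient mTEChi and 106 ± 9.63 CPM in control mTEChi, and Ccl20, a chemokine, was at 151 ± 11.8 CPM in HOIL-deficient mTEChi and 515 ± 28.4 CPM in control mTEChi (adjusted p = 3.6e-04 and 0.0055, edgeR). Among 17 general markers of thymic epithelium 4 rose and 1 fell, and Foxn1 was at 153 ± 15.3 CPM in HOIL-deficient mTEChi and 65.4 ± 26.6 CPM in control mTEChi. Blood lineages share several tuft cell genes, such as Alox5ap, Ltc4s, Ptgs1, Gfi1b and Fyb. Of 13 mast cell, basophil and platelet markers, 3 fell in HOIL-deficient mTEChi, Mcpt4, Fcer1a and Pf4, and the list summed to 141 to 210 CPM there, against 206 to 257 CPM in control mTEChi. Mcpt4 was at 2.38 to 5.72 CPM in HOIL-deficient mTEChi and at 18.3 to 19.9 CPM in control mTEChi. Of 13 dendritic cell and macrophage markers and of 9 B and plasma cell markers tested, 0 were called in mTEChi. The myeloid list summed to 984 to 1228 CPM in HOIL-deficient mTEChi and 883 to 1334 CPM in control mTEChi, and the B and plasma cell list to 128 to 153 CPM in HOIL-deficient mTEChi and 130 to 152 CPM in control mTEChi. Of 6 erythroid markers tested 0 were called, with sums of 371 to 1454 CPM in HOIL-deficient mTEChi and 333 to 1294 CPM in control mTEChi. Endothelial markers rose, 8 of 10, with sums of 225 to 584 CPM in HOIL-deficient mTEChi and 88.0 to 116 CPM in control mTEChi, although CD31-positive cells were gated out. No marker of these lists was at 0 in either mTEChi group, and the part of these cells in the tuft cell genes was not tested.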

How the data were processed

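RNA of sorted cells was amplified with the SMART-Seq v4 kit and sequenced in pairs on a NextSeq 500, per the labels' protocols. The authors deposited raw counts per gene and library, made with featureCounts on mm10, per the submitters' processing notes. Aligner, versions and use of strand were not given in the sources used here, and genes that overlap (Itpr3 with Itpr3os, Chat with Slc18a3, Lrmp with Casc1, Gng13 with Chtf18, Tas1r3 with Dvl1, Vil1 with Usp37, Cd300lf with Rab37, and Alox5, Bmx, Dclk1, Fyb and Gfi1b with predicted genes) may share reads. Symbols and positions came from RefSeq GRCm38.p6, by Entrez ID, for 25275 of 27179 IDs. CPM and TPM were computed here from the deposited counts and lengths.

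All 12 libraries were fitted in R 4.3.3 with edgeR 4.0.16 (filterByExpr, TMM scaling, robust quasi-likelihood F test, 1 coefficient per group), and calls were made at a Benjamini-Hochberg adjusted p under 0.05 over the 19398 genes tested. The 4 comparisons were HOIL deficiency in mTEChi, HOIL deficiency in cTECs, their difference, and control mTEChi against control cTECs, which share libraries. The SE of a log2 fold change is its size divided by the square root of F. For a group without counts the floor was 3 counts, summed over its libraries (0.0854 to 0.107 CPM), and ratios against 1 to 3 counts have exact 95% intervals. Both cover counting error only. Values in every library were given for Pou2f3, Trpm5, Dclk1, Avil, Gnat3, Il25, Alox5ap, Chat and each gene called in any comparison. From each pathway or marker list came the counts and up to 3 genes with the smallest p. In simulated data of 18737 genes with the design of the mTEChi comparison, 18% of 2-fold and 60 to 64% of 4-fold changes were recovered. Only 50 genes were changed there at each fold and direction, whereas the real comparison called 3858 genes. The adjustment of p is stricter where fewer genes change, so these shares do not give the power of the reported test. Alternatives were other scalings and filters, DESeq2 1.42.0, limma-voom (limma 3.58.1), fits of only the groups compared or only males, a replicate block, and leaving out each library. For the difference and the control cell types, the replicate block paired mTEChi and cTECs of the same genotype and number. The removal of mitochondrial genes and Malat1 was added after seeing the data. The genes and lists were chosen with earlier results of these data known.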

Additional observations from a re-analysis of the deposited data

Results flagged for a closer look

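For 6 tuft cell genes the effect of HOIL deficiency differed between the cell types by the interaction test of edgeR, the log2 fold change in mTEChi minus that in cTECs. The difference was -1.77 for Dclk1, -2.72 for Ptgs1 and -3.11 for L1cam, which rose in HOIL-deficient cTECs and were not called in mTEChi. It was -3.41 for Alox5ap, -3.94 for Ltc4s and -4.41 for Bmx, which fell in HOIL-deficient mTEChi and were not called in cTECs. The adjusted p values ran between 0.0061 and 0.033.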

How the results depend on the processing

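In mTEChi the number of the 30 genes called lower was 11 to 19 under the other settings, 3 to 11 without 1 library, and 0 were called higher in any fit. Of all genes, 6.07 to 13.2% were called lower under the other settings and 3.9 to 6.61% without 1 library. Genes called over the whole table were 1944 to 3116 without 1 library, against 3858. In cTECs, DESeq2 called 5 of the 30 higher and 6 lower, and of all 19398 genes it called 1794 higher and 1538 lower (7.93%). The fit of cTECs alone called 1395 genes and 0 of the 30 lower, with 16 of the 30 passing its filter, and the male libraries alone called 1540 genes, and the cause was not tested. Without 1 library the cTEC comparison called 1340 to 2306 genes. In the difference, the male libraries alone called 1030 genes and 3 of the 30 lower, as were 2.31% of all genes. Without 1 library the difference called 949 to 2088 genes, 3 to 6 of the 30 lower and 0 to 1 higher. Of all genes, 2.26 to 4.09% were then called lower, and 500 to 1270 genes were called higher. Between the control cell types 24 to 28 of the 30 were called higher without 1 library, as were 6956 to 7341 of all genes. RLE factors moved the median log2 fold change of all genes to 0.43 between the control cell types, against 0.24, and upper-quartile factors moved that of the difference to -0.07, against 0.09; no called gene of the 30 changed direction under any scaling.

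Signs turned only for genes that were not called. Gfi1b in mTEChi was at 0.16 in males alone and at -0.33 to 0.17 without 1 library, and Ptgs1 in mTEChi at -0.46 to 0.03. In cTECs, Pou2f3 was at 0.06 with limma-voom and -0.60 to 0.27 without 1 library, Hpgds at -0.05 and -0.22 to 0.46, Gng13 at -1.03 to 0.06 and Cd300lf at -1.82 to 0.65. Fyb between the control cell types was at -0.25 to 0.82.

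Samples with the same replicate number did not deviate together in all pairs of groups (correlations of -0.16 to 0.098). The main fit did not read the numbers as pairs. Pairs across genotypes are of different mice, so only pairs within a genotype bear on whether mTEChi and cTECs came from the same mice. Between HOIL-deficient mTEChi and cTECs, same-number correlations were 0.0348 to 0.0781, above those of different numbers (-0.0599 to 0.0189). Between control mTEChi and cTECs they were -0.0367 to 0.098, against -0.0555 to 0.0627. Whether mTEChi and cTECs of the same number came from the same mice was not tested. With a block for replicate number, 11 of the 30 and 7.16% of all genes were called lower in HOIL-deficient mTEChi. In cTECs 2 were called lower and 3 higher, as were 858 and 941 of 19398 genes. For the difference, mTEChi and cTECs of the same genotype and number were paired instead, and 6 of the 30 and 2.78% of all genes were called lower. The 9 genes without a count in HOIL-deficient cTECs, whose libraries held 31464618 counts together, are described there only against the floor of 3 counts. The cause of their absence was not tested.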
